A study of Arabidopsis thaliana x Arabidopsis arenosa with 4 samples.

Results

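Interspecific hybrids carry a gene copy from each parent species, and where the copies differ in sequence RNA reads can be assigned to one or the other. In siliques, the fruits with their developing seeds, most of the tissue (fruit wall, seed coats) belongs to the seed parent, while embryo and endosperm hold genomes of both parents. Pollen tubes that have grown through the pistil carry RNA of the pollen parent alone. The genes described here are the exceptions to a silique RNA that came mostly from Arabidopsis thaliana: 91 genes whose Arabidopsis arenosa allele supplied at least 25% of the RNA signal in each of 3 crosses.

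The samples were siliques taken 4 days after pollination from F1 hybrids of tetraploid A. thaliana, ecotype C24, Ler or Col, with tetraploid A. arenosa (line CS3901), and from Allo733, an allotetraploid in generation F8 whose A. thaliana ecotype is labelled Ler. Each of the 4 groups held 1 library, and the hybrids share the A. arenosa parent line. A. arenosa is named last in each cross and is taken here as the pollen parent, which the labels leave unstated. The values are RPKM, reads scaled by transcript length and library total, for both alleles together (the total) and for each allele. With no replicate to check a difference against, comparisons rest on rules of size and carry no p-value. Fewer cells of a type and less RNA per cell cannot be told apart in such tissue.

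The members were chosen by the measured share itself. With 1 transcript kept per gene, the A. arenosa share is the A. arenosa RPKM over the sum of both alleles, and a member had to reach 25% in the C24, the Ler and the Col cross. Of 16610 genes listed in any cross, 14660 had a share in all 3, and 91 of these (0.621%) were members. The threshold was reached by 3.09% of genes in C24, 1.62% in Ler and 4.45% in Col, and these values describe the choice and support nothing. Of the 91 members, 89 are annotated as protein-coding, AT4G06477 as a pseudogene and AT1G56612 as a long noncoding RNA. Of the markers of silique tissues, 13 of 15 carpel and ovule regulators were listed, among them FUL at 33.8, 39.7 and 37.0 RPKM. Markers of the seed's inner tissues were mostly not listed: of 5 endosperm regulators only IKU1 was, and of 7 embryo regulators only WOX9. Sets of 3 values follow the order C24, Ler, Col.

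Several members have a close copy elsewhere in the A. thaliana genome, and the sequences below are shown because reads of such copies can be told apart only where they differ. VGD1 (chr2:19327853-19330197, minus strand, TAIR10.1) encodes a pectin methylesterase needed for pollen tube growth, and the adjoining gene VGDH1 (chr2:19324134-19326484, minus strand) encodes its closest relative. Their coding sequences differed at 145 of 1758 aligned bases (91.8% identity), and the longest identical run was 74 bases. In the following stretch of 150 coding bases, positions 673 to 822 of VGD1 and 643 to 792 of VGDH1, capitals mark the 9 bases at which they differ.
VGD1: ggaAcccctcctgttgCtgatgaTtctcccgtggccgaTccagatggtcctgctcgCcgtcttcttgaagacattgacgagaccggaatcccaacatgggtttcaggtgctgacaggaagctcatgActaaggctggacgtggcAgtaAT
VGDH1: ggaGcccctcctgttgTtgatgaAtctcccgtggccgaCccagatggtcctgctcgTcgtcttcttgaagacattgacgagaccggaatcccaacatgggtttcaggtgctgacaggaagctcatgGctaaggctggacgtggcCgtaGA

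A pair with a lower coding identity (88.2%) was AT2G33220 (chr2:14078850-14080743, plus strand), annotated as a GRIM-19 protein, a subunit of mitochondrial complex I, and its copy MEE4 (AT1G04630, chr1:1289734-1291112, minus strand). Here 51 of 432 aligned coding bases differed, with a longest identical run of 33 bases, and 17 differences (capitals) fell in coding positions 176 to 325 of both.
AT2G33220: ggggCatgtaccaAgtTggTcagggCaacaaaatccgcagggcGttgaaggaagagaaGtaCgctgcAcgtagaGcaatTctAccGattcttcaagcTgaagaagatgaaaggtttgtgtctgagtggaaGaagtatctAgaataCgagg
MEE4: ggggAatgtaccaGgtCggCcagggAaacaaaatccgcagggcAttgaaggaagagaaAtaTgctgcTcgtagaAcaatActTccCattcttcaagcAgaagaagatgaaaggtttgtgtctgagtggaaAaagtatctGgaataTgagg

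The 91 genes spanned the whole range above the threshold. Their median share was 44.4% (C24), 41.9% (Ler) and 58.2% (Col), against medians of 5.41%, 3.77% and 4.79% over all genes. A. arenosa supplied at least 50% in every cross for 26 members and at least 80% in every cross for 5, whereas 28 members stayed under 50% in every cross. The remaining 37 lay above 50% in some crosses and below it in others. Of these, 19 lay above it in Col alone, 3 in C24 alone and 4 in Ler alone. Over all genes with a share in all 3 crosses, 50% was reached by 0.334% in C24, 0.293% in Ler and 1.01% in Col. Just inside the threshold by their lowest share were AGP41 (25.1%), AT5G59240 (25.4%), AT5G21090 (25.4%), PAP20 (25.9%) and GSTU13 (25.96%). Just outside it were AT1G10095 (24.99%), AT5G59500 (24.96%), PFK2 (24.9%), LHCB4.2 (24.9%) and LAC11 (24.8%), so the choice fell within a continuous range of values.

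**Figure D1:**
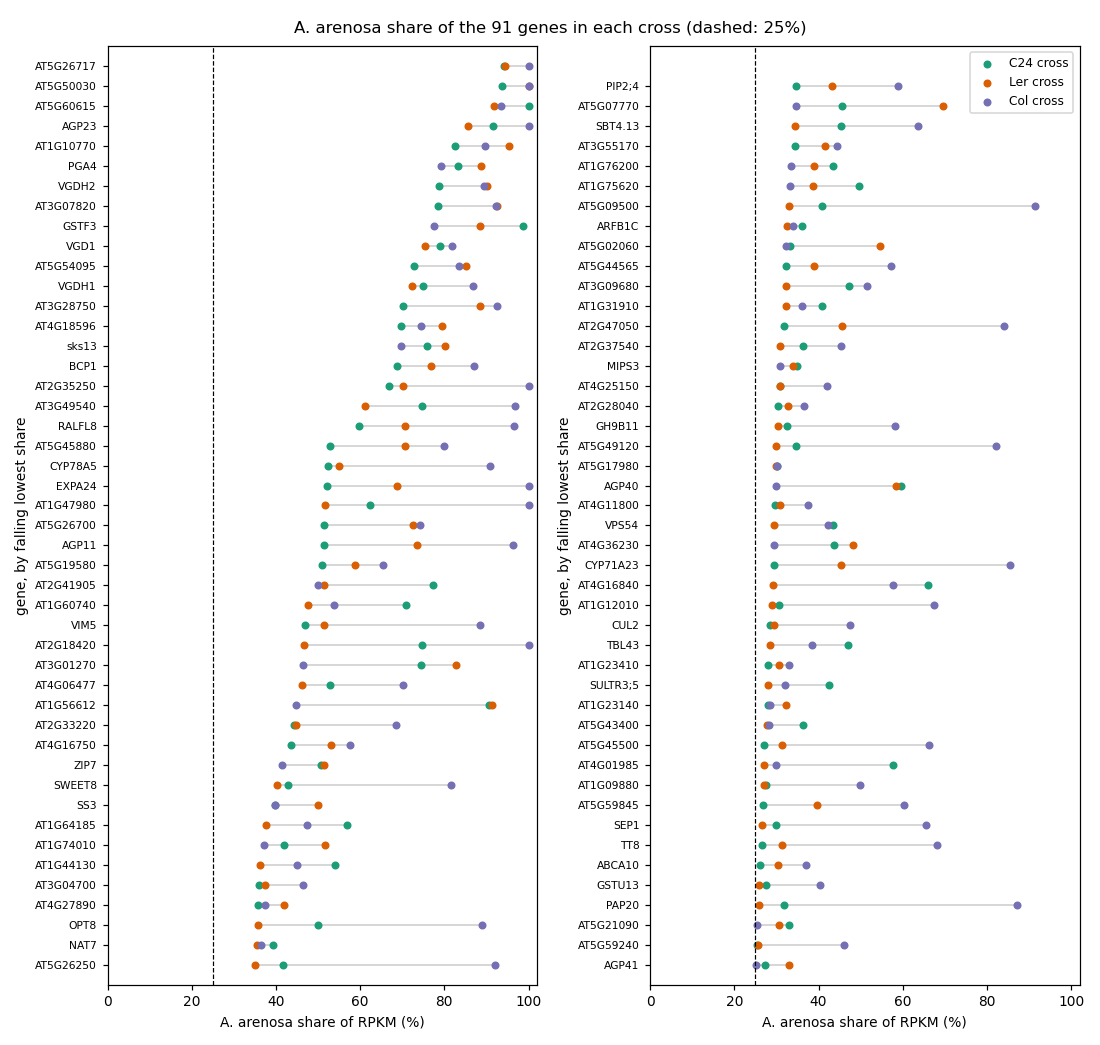
A. arenosa share of RPKM (x axis, percent) of each of the 91 genes (y axis, sorted by falling lowest share) in C24 (green), Ler (orange) and Col (purple), 1 library each; grey lines join the lowest and highest cross and the dashed line marks 25%. Purple points often lie furthest right: the Col cross held the highest share for 51 of the 91 genes (56.0%) and for 39.4% of all genes.

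Proteins that act on pectin, the gel-like polysaccharide of growing cell walls, or that inhibit such enzymes held many of the highest shares. The polygalacturonase gene PGA4 had 83.2%, 88.7% and 79.2% A. arenosa RPKM, with A. arenosa RPKM of 4.61, 4.60 and 3.802 beside A. thaliana RPKM of 0.929, 0.585 and 1.00. The VANGUARD-like gene VGDH2 had 78.8%, 90.2% and 89.4% at totals of 2.35, 2.19 and 2.63 RPKM. Both were steady in total, and A. arenosa RPKM exceeded A. thaliana RPKM in every cross. VGD1 had A. arenosa RPKM of 4.52, 6.74 and 6.37 and A. thaliana RPKM of 1.20, 2.20 and 1.41, and VGDH1 had 1.56, 2.17 and 2.95 beside 0.520, 0.836 and 0.451. In both genes of this adjoining pair the Col cross held the highest share, 81.9% for VGD1 and 86.8% for VGDH1, and reads from stretches where the sequences shown are identical cannot be told apart.

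AT2G47050 is the next annotated gene after VGD1 on the chromosome and encodes a protein of the family of invertase and pectin methylesterase inhibitors. Its totals of 16.2, 18.2 and 16.1 RPKM were close to level, but its share was 31.8%, 45.6% and 84.2%. A. thaliana RPKM was 11.03, 9.87 and 2.56 while A. arenosa RPKM was 5.14, 8.28 and 13.6, so the alleles exchanged rank in the Col cross. Higher shares were held by genes of the same inhibitor family elsewhere in the genome. AT5G50030 had 93.8%, 100% and 100% at totals of 4.58, 6.52 and 6.88 RPKM, and AT1G10770 had 82.4%, 95.4% and 89.7% at totals of 3.06, 3.04 and 3.43 RPKM. The pectin lyase-like gene AT3G07820 had 78.4%, 92.4% and 92.4%. The pectate lyase gene AT3G01270 had 74.5%, 82.8% and 46.4%, lowest in the Col cross as for PGA4.

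Arabinogalactan proteins are heavily glycosylated proteins of the cell surface, and AGP6 and AGP11 are known to act in pollen. AGP23 had A. arenosa RPKM of 7.50, 14.7 and 21.6, and A. thaliana RPKM of 0.696, 2.48 and, near 0, 9.43e-06. The A. arenosa allele thus supplied nearly all AGP23 signal in the Col cross. AGP11 had shares of 51.4%, 73.4% and 96.2% at totals of 3.04, 2.27 and 3.35 RPKM. AGP40 had shares of 59.7%, 58.5% and 29.97%, lowest in the Col cross. AT2G41905, the closest protein to AGP23 in the annotation, had shares of 77.3%, 51.4% and 49.997%, highest in the C24 cross.

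RALF peptides are secreted ligands of a family of receptor kinases that includes ANX1 of the pollen tube. RALFL8 had A. arenosa RPKM of 1.54, 4.72 and 6.13 beside A. thaliana RPKM of 1.04, 1.96 and 0.220. The receptor gene ANX1 itself was no member, with shares of 3.57%, 5.90% and 14.5%. The defensin-like gene AT5G60615 had shares of 100%, 91.8% and 93.4% at totals of 6.95, 8.49 and 8.48 RPKM. AT5G26717, annotated as a putative membrane lipoprotein with 81 residues of which 8 are cysteines, had shares of 94.1%, 94.4% and 100%. Its totals were only 2.24, 2.14 and 2.37 RPKM, close to the lowest total any table lists, 2 RPKM. The shares of AT5G26717 are also uncertain because its paralog AT5G26692 has 94.1% protein identity. BCP1, the homolog of a Brassica pollen protein, had A. arenosa RPKM of 2.24, 5.63 and 9.01 beside 1.02, 1.69 and 1.35 of A. thaliana. For AGP23, RALFL8 and BCP1 the A. arenosa RPKM was thus lowest in the C24 cross and highest in the Col cross.

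AT4G18596 and AT5G45880 encode related proteins of the pollen Ole e 1 family, and both were members. AT4G18596 had A. arenosa RPKM of 3.18, 8.15 and 8.81 and A. thaliana RPKM of 1.37, 2.11 and 3.03. AT5G45880 had 2.69, 7.93 and 9.30 beside 2.40, 3.29 and 2.35. Their coding sequences were 87.3% identical over 519 aligned bases, with a longest identical run of 32 bases. The multicopper oxidase-like gene sks13 had A. arenosa RPKM of 7.16, 14.9 and 14.0 beside 2.27, 3.71 and 6.12 of A. thaliana. All 3 genes had their lowest A. arenosa RPKM in the C24 cross.

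**Figure D2:**
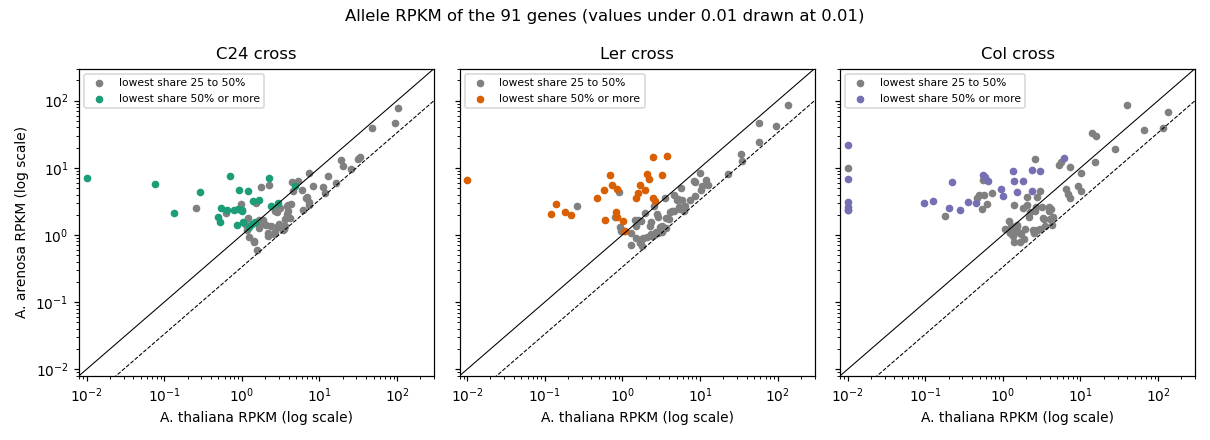
A. arenosa RPKM (y axis, log scale) against A. thaliana RPKM (x axis, log scale) of the 91 genes in each cross, 1 library per panel, coloured where the lowest share over the crosses is 50% or more and grey otherwise; the solid line marks equal alleles and the dashed line a share of 25%. No gene lies below the dashed line, by the choice of genes, and 7 genes of the Col cross lie at the left edge, where the A. thaliana RPKM was under 0.01.

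Transport genes among the members reached across several substrates. SWEET8, a sugar exporter needed for pollen development, had shares of 42.9%, 40.4% and 81.6% at totals of 3.38, 3.93 and 2.98 RPKM. OPT8, of the oligopeptide transporters, had 49.99%, 35.6% and 88.9%, and AT5G26250, of the major facilitator superfamily, had 41.6%, 34.9% and 92.1%. In these 3 genes the Col cross stood apart. NAT7, a nucleobase-ascorbate transporter gene, was by contrast even, with 39.2%, 35.6% and 36.5% at totals of 13.8, 18.3 and 14.8 RPKM. The aquaporin gene PIP2;4 had 34.7%, 43.2% and 58.9%, and its total was highest in the C24 cross at 31.1 RPKM against 14.9 and 17.7.

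Regulators of growth, flower and seed were members too. CYP78A5, a cytochrome P450 that promotes organ growth, had A. thaliana RPKM of 4.83, 2.63 and 0.647 and A. arenosa RPKM of 5.29, 3.22 and 6.45. CYP78A6 and CYP78A9 of the same family were listed in the Col cross alone, with shares of 0.000107% and 12.0%. TT8, a bHLH regulator of seed coat pigment, had totals of 16.0, 15.1 and 17.8 RPKM, with A. thaliana RPKM of 11.8, 10.4 and 5.68 and A. arenosa RPKM of 4.24, 4.73 and 12.1. SEP1, a MADS-box gene of floral organ identity, showed the same exchange, with A. thaliana RPKM of 31.1, 34.5 and 15.8 and A. arenosa RPKM of 13.3, 12.6 and 30.1 at level totals. VIM5, a methylcytosine-binding protein gene expressed from the paternal copy in endosperm, had A. thaliana RPKM of 2.83, 1.57 and 0.460 beside 2.50, 1.67 and 3.50.

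The same exchange was found over the members whose A. arenosa share passed 50% in the Col cross alone. In these 19 genes the A. thaliana RPKM of the Col cross lay at a median of -1.40 log2 units from the mean of the C24 and Ler crosses and was higher in 0 of 19, while the A. arenosa RPKM lay at 0.96 and was higher in 17. Their total differed by a median of -0.10 after centring. A share of 50% in the Col cross alone favours such values by construction. The values of both alleles also add up to the total, so at a level total a lower A. thaliana RPKM means a higher A. arenosa RPKM. The fall and the rise are therefore not separate observations, here or for SEP1, TT8 and AT2G47050. The allele table of the Col cross is also the only one with repeated header lines (4) and with transcripts listed at 0 for both alleles (41). Among all genes the C24 cross held the highest share for 41.3% and the Col cross for 39.4%. Among the 91 members these figures were 23.1% and 56.0%. The same shares chose the members, so this difference describes the choice and carries no test. The widest ranges between crosses were those of PAP20, a purple acid phosphatase gene (61.2 points), AT5G09500 (58.5), AT5G26250 (57.2), CYP71A23 (56.1) and OPT8 (53.3), each highest in the Col cross.

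The most abundant members differed in how even their shares were. AT1G76200, annotated as a beta subcomplex subunit of NADH dehydrogenase (complex I), had totals of 179, 225 and 203 RPKM and shares of 43.4%, 38.9% and 33.5%. AT5G21090, a leucine-rich repeat protein gene, had totals of 142, 137 and 155 RPKM and shares of 33.0%, 30.6% and 25.4%. The GRIM-19 gene AT2G33220 had totals of 86.6, 105 and 125 RPKM and shares of 44.4%, 44.9% and 68.5%. A. arenosa thus supplied most of its RPKM in the Col cross only. Its copy MEE4, shown above, had shares of 7.30%, 7.66% and 2.65% at 37.5, 57.9 and 51.5 RPKM. Next in mean total came AT1G31910, a GHMP kinase gene, with shares of 40.9%, 32.3% and 36.1%, then AT1G12010 with 67.5% and SEP1 with 65.5% in the Col cross, and GSTU13, a tau-class glutathione transferase gene, with 27.6%, 25.96% and 40.5%. A range of at most 10 points between crosses was found for 22 members, with AT5G17980 at 30.03%, 29.98% and 30.03%, and the median range was 18.9 points.

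Most members were, however, weakly expressed. Their median total was 4.96, 5.31 and 5.30 RPKM, against 12.4, 13.9 and 13.3 RPKM for all genes. Totals under 5 RPKM were found for 51.6%, 47.3% and 47.3% of members and for 18.3%, 14.1% and 15.9% of all genes. By mean total, members made up 2.00% of genes under 5 RPKM (43 of 2146), 0.766% of those from 5 to 10 RPKM, 0.247% of those from 10 to 50 RPKM and 0.190% of those above (4 of 2103). None of the 4 had a lowest share of 50%. Read depth is unknown, and the part that the larger counting error of low genes plays in their shares was not tested. Together the members carried 1.23%, 1.70% and 1.58% of all A. arenosa RPKM.

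The genes at the threshold in a pair of crosses were more numerous than the members. With a share in all 3 crosses required, 131 genes reached 25% in both Ler and Col, 174 in both C24 and Col, and 143 in both C24 and Ler, and the 91 members are by definition those that reached it in the remaining cross too. These are 69.5%, 52.3% and 63.6% of such genes. Genes not listed in the remaining cross are left out of these figures, and with them the pairs held 152, 184 and 162 genes, of which the members were 59.9%, 49.5% and 56.2%. The same shares chose the members, so these percentages describe the choice and carry no test.

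The total RPKM entered the rule through the choice of transcript, the need to be listed and the share itself. In the members the values of both alleles add up to the total, which is thus the denominator of the share. Few members differed 2-fold in total between crosses. After centring on the median gene, 4 of the 91 members (4.40%) were at least 2-fold above both other crosses in the C24 cross (2.1% of all genes). There 2 members (2.20%) were below (1.09% of all genes). For Ler 0 members were above (1.13% of all genes) and 1 (1.10%) was below (1.39%). For Col 2 (2.20%) were above (0.606% of all genes) and 2 (2.20%) below (0.926%). The member percentages lay above those of all genes for C24 and Col and below them for Ler, but rest on few genes. The percentages of all genes were not matched for total RPKM, and no difference is read from these counts. After centring each count is at most 4 genes. A member had to be listed in every table, and so at 2 RPKM or more, which keeps out genes that lie far lower in 1 cross. Without centring, which moves the median gene of the C24 cross by -0.16 log2 units relative to the Ler cross, the counts were 3 above (1.61% of all genes) and 6 below (1.68%) in C24. They were 0 above (1.59%) and 0 below (0.987%) in Ler, and 2 above (0.626%) and 1 below (0.831%) in Col. The count below in C24 was thus 6 without centring and 2 with it.

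Among the members higher in the C24 cross was AT1G60740, a thioredoxin superfamily gene, with 7.72 RPKM there against 2.86 (Ler) and 2.28 (Col). It shares 98.8% of its protein sequence with TPX2, so its reads are uncertain. AT5G59845, of the gibberellin-regulated family, had 22.0 RPKM against 8.52 and 7.54, AT4G01985 had 10.5 against 3.93 and 3.90, and the glyoxal oxidase-related gene AT1G75620 had 9.05 against 4.76 and 3.61. The members lower there were RALFL8, with 2.58 RPKM against 6.68 and 6.35, and the cupin gene AT5G26700, with 2.55 against 5.82 and 5.88. In the Col cross the pseudogene AT4G06477 had 47.6 RPKM against 15.7 and 8.49 and AT1G31910 had 102.8 against 32.2 and 49.8, while AT1G12010, a 2-oxoglutarate-dependent oxygenase gene, had 16.2 against 47.3 and 82.2 and the aspartyl protease gene AT2G28040 had 2.16 against 4.26 and 5.41. AT4G06477 was also the member below both others in the Ler cross.

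Several members with A. arenosa majorities lay near 2-fold lower in the C24 cross and did not pass the rule after centring. Without centring, AGP23, BCP1, AT4G18596 and AT5G45880 were more than 2-fold below both other crosses there. Totals were 8.20, 17.1 and 21.6 RPKM for AGP23, 9.43, 18.6 and 20.1 for sks13, 3.26, 7.32 and 10.4 for BCP1, 4.55, 10.3 and 11.8 for AT4G18596 and 5.09, 11.2 and 11.7 for AT5G45880. Of the 26 members with at least 50% in every cross, 13 had their lowest total in the C24 cross after centring (38.3% of all genes did) and 14 without centring (50.4% of all genes). Of all 91 members, 29 did after centring. The low C24 totals of these genes were thus not shared by most members.

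**Figure D3:**
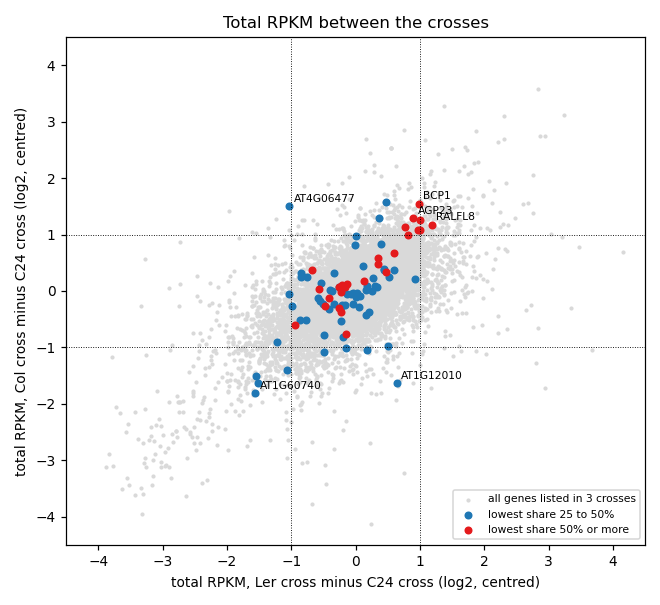
Difference in total RPKM between the Ler and C24 crosses (x axis) and between the Col and C24 crosses (y axis), in log2 units after centring, for all genes (grey; 4 lie outside the drawn range) and for the 91 members (red where the lowest share is 50% or more, blue otherwise); dotted lines mark 2-fold. AGP23, BCP1 and RALFL8 lie up and right, with lower totals in the C24 cross, and AT1G60740 down and left.

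Pollen genes were examined from a list of 38 known markers. Of these, 15 were listed in any cross, 10 had a share in all 3, and 5 were members: VGD1, VGDH1, AGP23, AGP11 and sks13. Median shares of the 10 markers were 45.4%, 48.9% and 49.99%. The summed total of the listed markers was 59.7 RPKM over 12 genes in the C24 cross, 89.8 over 13 in the Ler cross and 100.3 over 15 in the Col cross. The proton pump gene AHA8 (21.0%, 18.8% and 30.4%) missed the threshold in at least 1 cross. So did the leucine-rich repeat extensin genes LRX8 (31.6%, 24.7% and 25.6%), LRX9 (39.5%, 23.6% and 20.02%) and LRX10 (21.2%, 25.5% and 26.3%). ANX1 lay far lower, at 3.57%, 5.90% and 14.5%. AHA9 had 12.6% (C24) and 15.4% (Ler) and no share in the Col cross. AGP6, sks14, LRX11 and PPME1 lacked a share in at least 1 cross and were above 50% where they had a share. Of 5 sperm cell markers, HAP2, DUO1, GEX1, GEX2 and MGH3, 0 were listed in any cross, and the pollen actin genes ACT4 and ACT12 were not listed either. The part of pollen or pollen tubes in the high shares was not tested.

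The other lists held few members. Members were 1 of 13 listed seed coat genes (TT8), 1 of 13 listed carpel and ovule genes (SEP1), 1 of 3 listed paternally expressed genes (VIM5) and 1 of 3 listed CYP78A genes (CYP78A5). There were 0 members among 2 maternally expressed genes, 10 photosynthesis genes, 6 reference genes and 2 heat shock genes listed. Over genes with a share in all 3 crosses, the carpel and ovule list had median shares of 3.18%, 5.04% and 29.2%, highest in the Col cross, where SEP2 had 55.99% and INO 76.9%. Medians were 7.79%, 2.81% and 8.24% for seed coat genes, 13.6%, 8.52% and 12.5% for paternally expressed genes and 14.0%, 24.7% and 6.13% for maternally expressed genes. They were 1.34%, 1.45% and 1.49% for photosynthesis genes, 15.1%, 9.31% and 7.47% for reference genes and 6.56%, 5.31% and 8.72% for heat shock genes. By annotation words, chosen after the members had been seen, 10 of 98 pectin-related genes were members, 4 of 36 arabinogalactan protein genes, 7 of 382 transport genes and 5 of 360 ribosomal protein genes, against 0.621% of all genes. The median pectin-related gene had 7.37%, 5.32% and 6.14%, a few points above the medians of all genes.

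The deposited tables beside Allo733 list selected transcripts only and held 7 of the 91 members. All comparisons share the same Allo733 library. Among all genes listed with the C24 cross, 31.8% were at least 2-fold above Allo733 and 31.1% below; with the Ler cross these were 29.8% and 27.8%, and with the Col cross 32.4% and 28.7%. Of the members, 0 of 4 were above and 3 below with the C24 cross, 0 of 2 above and 2 below with the Ler cross, and 3 of 7 above and 3 below with the Col cross. AT1G12010 had 241.7 RPKM in Allo733 against 47.3, 82.2 and 16.2, and AT1G60740 had 23.5 against 7.72, 2.86 and 2.28. AT1G23410, a ribosomal S27a and ubiquitin fusion gene, had 29.99 RPKM in Allo733 against 10.07 and 10.9 in the C24 and Col crosses. AGP23 had 3.72 RPKM in Allo733 against 21.6 in the Col cross, 5.67-fold higher there. AT4G06477 had 3.53 against 47.6, and AT1G31910 had 43.4 against 102.8. AT1G76200 differed by less than 2-fold, with 257 RPKM in Allo733 against 179 and 203 in the C24 and Col crosses. The allele shares of Allo733 were not analysed here.

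In features that the rule did not use, many members encoded short proteins. Over the 89 members with a coding sequence in the TAIR10.1 annotation the median length was 293 residues, against 391 over 14470 genes with a share. Proteins under 120 residues were encoded by 14 members (15.7%) and by 4.89% of all genes; among genes with a mean total under 10 RPKM the figures were 15.9% of members and 3.60% of genes. Of the 14, AGP23 and AT2G41905 encode 61 residues, AGP40 62, AGP41 63, RALFL8 82 and BCP1 119. AT2G18420 and AT5G59845, of the gibberellin-regulated family, encode 94 and 89 residues with 12 cysteines each, and AT5G60615 and AT5G26717 have 8 cysteines each. A coding sequence in 1 exon was found for 21.3% of members and 14.9% of genes. Short transcripts collect fewer reads at a given RPKM, and the part of length in the shares was not tested.

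**Figure D4:**
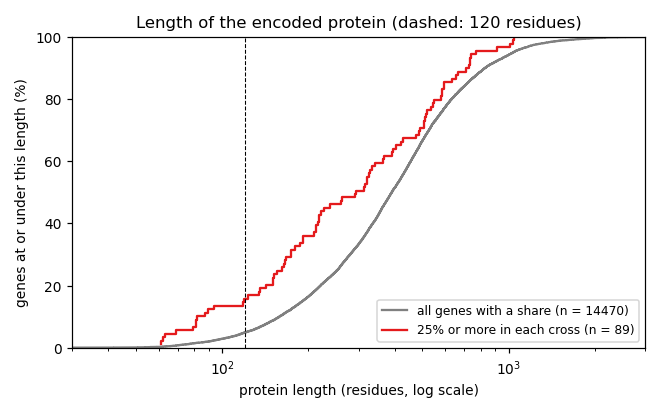
Cumulative percentage of genes (y axis) by length of the longest annotated protein (x axis, residues, log scale) for the 89 members with a coding sequence (red) and the 14470 genes with a share (grey); the dashed line marks 120 residues. The red line lies above the grey at short lengths, with 15.7% against 4.89% of genes under 120 residues.

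Close copies were counted by protein identity. A paralog with at least 90% protein identity over 80% of the length was found for 11 members (12.4%) and for 6.95% of all genes. Among genes with a mean total under 10 RPKM the figures were 11.6% of members and 3.43% of genes. Among these, the ribosomal protein gene AT3G09680 had 3.11, 2.60 and 2.66 RPKM and its copy AT5G02960 had 268, 426 and 429. The copy's shares of 11.6%, 16.6% and 22.4% lay below the 47.3%, 32.3% and 51.4% of AT3G09680. Likewise AT3G55170 had 34.3%, 41.4% and 44.3% and its copy AT3G09500 8.67%, 2.65% and 5.82% at 152, 258 and 313 RPKM. In both cases the copy was the more abundant gene and had the lower share. UBQ6, the copy of AT1G23410, was also the more abundant gene, at 154, 221 and 256 RPKM beside 10.07, 12.5 and 10.9. Its shares of 25.8%, 23.97% and 28.9% were lower too, but closer to the 28.1%, 30.7% and 33.0% of the member. AT5G43640, the copy of AT5G09500, had a lower share but was not more abundant. It was listed with the C24 cross alone, at 3.20 RPKM and 22.6% beside 3.47 RPKM and 40.9% of the member. GSTF3, a phi-class glutathione transferase gene, had 98.7%, 88.4% and 77.5%, while its copy GSTF2 was not listed with the C24 cross and had 6.66% (Ler) and 0.000102% (Col). Shares of these genes are uncertain, since reads of near-identical copies can be assigned to either. Without the 11 genes, 80 members were left.

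Members lay on all 5 chromosomes, from 0.497% of the genes with a share on chromosome 4 (11 of 2213) to 0.844% on chromosome 5 (29 of 3437). Apart from the run of VGDH1, VGD1 and AT2G47050, the adjoining genes SS3 and AT1G74010, annotated as strictosidine synthase 3 and a calcium-dependent phosphotriesterase-like protein, were members. SS3 had shares of 39.8%, 50.05% and 39.8% and AT1G74010 had 41.8%, 51.6% and 37.2%, so both were highest in the Ler cross. The glyoxal oxidase-related gene AT5G19580 and the sulfate transporter gene SULTR3;5 lay 3 annotated genes apart.

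The bases upstream of the gene start were searched for AGAAA, a motif known from the promoter of the tomato pollen gene LAT52, and for GTGA, known from a late pollen gene of tobacco, on both strands (TTTCT and TCAC on the other). AGP23 and sks13 are shown because both had high shares and near 2-fold lower totals in the C24 cross, with matches to AGAAA or TTTCT in capitals. The windows of 250 bases are chr3:21383896-21384145 before AGP23 and chr3:4354673-4354922 before sks13, both on the plus strand of TAIR10.1.
AGP23: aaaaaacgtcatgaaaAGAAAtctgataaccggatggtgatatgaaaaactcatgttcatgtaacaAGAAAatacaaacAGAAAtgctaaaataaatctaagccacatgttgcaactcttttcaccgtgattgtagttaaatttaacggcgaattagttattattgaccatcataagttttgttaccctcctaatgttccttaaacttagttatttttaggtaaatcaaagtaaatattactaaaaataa
sks13: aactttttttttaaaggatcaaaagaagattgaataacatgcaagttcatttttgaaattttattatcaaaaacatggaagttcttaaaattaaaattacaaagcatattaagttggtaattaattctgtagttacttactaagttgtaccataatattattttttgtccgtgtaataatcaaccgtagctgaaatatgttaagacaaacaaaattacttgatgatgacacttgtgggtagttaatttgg

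The window of AGP23 held 3 matches to AGAAA and 3 to GTGA, and that of sks13 held 0 of either. At least 1 AGAAA match was found upstream of 74 of 91 members (81.3%) and of 81.6% of all genes, and GTGA upstream of 70.3% of members and 77.0% of genes.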

How the data were processed

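Poly(A) RNA of siliques was sequenced on libraries made with an Illumina kit, per the labels' protocols, with 1 library per group. The authors deposited RPKM per transcript, per the file headers: the total and the values of both alleles (T and A, read as A. thaliana and A. arenosa) for each cross, and totals of selected transcripts beside Allo733. TAIR 9 is the build named in the submitters' processing notes. Aligner, allele assignment and read depth were not given in the sources used here; any preference of the mapping for A. thaliana would lower every A. arenosa share, and RPKM depends on each library's own total.

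The 4 repeated header lines of the Col table were dropped, and 1 transcript was kept per gene, the one listed in most tables and then with the highest mean total. Totals were compared as log2 of RPKM plus a pseudocount of 0.1, which understates changes of low genes, centred on the median gene, and called at 2-fold against both other crosses or against Allo733 within its table. Names, coding sequences and upstream bases came from the RefSeq annotation of TAIR 10.1, where all 91 members matched by code (16522 of 16610 codes overall); its coordinates are those of TAIR 10.1. Proteins were translated from the longest coding sequence and compared with blastp 2.17.0 (e-value 1e-10); coding sequences were aligned with mafft 7.526. The code of the rule and calls was checked on simulated data without noise, which says nothing of counting error or allele assignment.

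Members, lists and tests were chosen with earlier results of these data known. Genes were named by rank of share, total, range and fold, by list and by position; annotation groups and other names were chosen after their values were seen. Alternatives were other thresholds, transcripts, pseudocounts, folds and filters, no centring, and leaving out each cross. Python 3.11.15, numpy 2.4.6, pandas 2.3.3, Biopython 1.88 and matplotlib 3.10.9 were used.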

Additional observations from a re-analysis of the deposited data

Results flagged for a closer look

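For 37 of the 91 members A. arenosa supplied most of the RPKM in some crosses and under 50% in others, such as SEP1, TT8 and AT2G47050 above 50% in the Col cross alone. With 1 library per cross this difference was not tested.

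Genes outside the members also held high shares. There were 21 genes with at least 25% in both the Ler and the Col cross and no listed transcript in the C24 cross, 10 such genes for the Ler cross and 19 for the Col cross. At a share of 50% these numbers were 9, 4 and 1. Those missing from the C24 table included sks14 (lowest share 58.0%), the RALF-like genes RALFL9 (75.5%) and RALFL19 (61.1%), FLA3 (80.03%), the beta-galactosidase gene BGAL11 (87.8%) and AT3G62710 (97.0%), all named after their values were seen. AGP6 was missing from the Ler table, with shares of 61.6% (C24) and 100% (Col).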

How the results depend on the processing

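No paired analysis was possible because each group held 1 library. The number of members was 177 at a threshold of 20%, 64 at 30% and 26 at 50%, 33 with 5 RPKM required in every cross, and between 131 and 174 with 1 cross left out (131 without the C24 cross, 174 without the Ler cross, 143 without the Col cross). The lowest-numbered transcript gave 93, all listed transcripts 90, 0.1 RPKM added to each allele 101 and rescaled ratios 95. Of genes past the threshold in a pair of crosses and with a share in all 3, the percentage that also passed it in the remaining cross was 92.9%, 83.9% and 81.3% (81.25% before rounding) in the C24, Ler and Col crosses at a threshold of 50%; with 5 RPKM in every cross that of the Ler cross was 35.5%. With a pseudocount of 1, members below both others in total numbered 0 (C24), 0 (Ler) and 1 (Col); without centring 6, 0 and 1; at 4-fold 0 members were called in any cross or direction. Against Allo733 at 4-fold, 1 member lay below with the C24 cross, 1 with the Ler cross and 2 with the Col cross. Above it at 4-fold lay 0, 0 and 2 members. The percentages of all genes at 4-fold against Allo733 were not computed. Median totals of the members with 5 RPKM in every cross were 10.6, 12.5 and 14.7 RPKM. With 1 cross left out, median totals lay between 5.11 and 7.21 (C24), at 5.66 (Ler) and between 5.88 and 7.76 (Col). Members with a paralog numbered 31 at 80% identity and 5 at 95%, and the percentages of all genes at these cutoffs were not computed. At a threshold of 20%, 8 pollen markers and 2 carpel and ovule genes were members. The causes were not tested. Unknown depth and totals near 2 RPKM limit the shares of low genes.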

Other observations

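A share in exactly 2 crosses, at 25% or more in both, was found for 54 genes, and a share in exactly 1 cross, at 25% or more, for 130 genes. These genes could not be placed by the rule.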
